A study of Tachysurus vachellii and Tachysurus fulvidraco x Tachysurus vachelli and Tachysurus fulvidraco with 9 samples.

Results

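Liver microRNAs of P. vachelli, the darkbarbel catfish, were compared with those of P. fulvidraco, the yellow catfish, in juveniles of both parental species of a hybrid line. There were 3 P. vachelli and 3 P. fulvidraco liver libraries of small RNA, which are 6 of the 9 libraries of the series. The other 3 came from Huangyou-1, the hybrid of a P. fulvidraco mother and a P. vachelli father. These hybrid libraries entered the comparison only through the filter on levels and the shared estimate of the spread. All lines hatched at 28 °C and were kept as 600 juveniles each, 200 in each of 3 aquaria of 700 L, with no treatment or allele named for any line. The organism fields give the species as Tachysurus vachellii and Tachysurus fulvidraco. Whether a replicate is a single fish, an aquarium or a pool is not stated by the labels, so p-values measure the spread between these libraries, which may be technical in part. The deposited table lists 888 entries with 728 distinct sequences, of which 278 reached a normalized read count of 10 in at least 3 of the 9 libraries and were tested. Of these, 262 carried a miRNA name and 16 were predicted candidates that the table names PC.

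A miRNA is cut from a hairpin whose stem gives a 5p strand and a 3p strand, and usually one of them is kept in an Argonaute protein while the other is degraded. The kept strand finds target messenger RNAs mainly through its seed, bases 2 to 8 from the 5′ end, and members of a family mostly share that seed while differing farther along. In vertebrate liver miR-122 is the dominant miRNA, known for its role in lipid metabolism. Beyond the level of single sequences, these properties were compared: the family's summed level, the ratio of its arms, the share of each sequence within an arm, and the rank of each sequence in its library.

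The sequences on which the comparison turns are shown as DNA letters, as deposited, with the seed in capitals. The let-7 sequences share a seed but not the same change between the species, and the same holds for the 2 miR-125 sequences, while the arms of miR-451 and miR-33 and the paralogs of miR-10 and miR-92 are shown because their balance differed. The last 4 sequences were at or near 0 in one species. Prefixes name the species of the matched reference entry and suffixes are those of the deposited table. A shared name, as in sha-miR-125a and aca-miR-125a-5p, therefore need not mean the same gene.
ssa-let-7a-5p: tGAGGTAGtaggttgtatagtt
ssa-let-7f-5p_1ss19TA: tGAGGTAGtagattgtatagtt
dre-let-7d-5p: tGAGGTAGttggttgtatggtt
sha-miR-125a: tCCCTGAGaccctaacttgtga
aca-miR-125a-5p: tCCCTGAGacccttaacctgtg
dre-miR-451: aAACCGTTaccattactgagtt
aca-miR-451-3p_L+2R+1: tTTAGTAAtggtaagggttctc
gga-miR-33-5p: gTGCATTGtagttgcattgc
gga-miR-33-3p_L+1_1ss20TC: cAATGTTCctgcagtgcagca
dre-miR-10b-5p_R-1: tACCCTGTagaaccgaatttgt
ccr-miR-10c_R-1: tACCCTGTagatccggatttgt
xtr-miR-92a_R+1: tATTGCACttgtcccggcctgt
ssa-miR-92b-3p: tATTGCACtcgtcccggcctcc
PC-5p-555_7718: aGGAAAGAgtggacaatagca
PC-5p-3257_591: tTTTAATGactgcaaactgtgc
dre-miR-202-5p_R+1: tTCCTATGcatatacctctttga
ola-miR-99_R+1_1ss10CT: cAAGCTCGcttctgtgggtctct

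Estimated depth was 7076487 to 8578713 reads in P. vachelli, against 6336148 to 7425497 in P. fulvidraco, so that 3 reads corresponded to normalized counts of 2.69 to 3.56 in P. vachelli and 2.77 to 2.96 in P. fulvidraco. The hepatocyte miRNA miR-122-5p, listed as ssa-miR-122-5p, ranked first in all 6 libraries, with 33, 32.5 and 36.3% of the tested total in P. vachelli and 33.9, 32.9 and 33.8% in P. fulvidraco. Of the single sequences, 51.4% passed the test (limma with trend on log2(normalized count + 1), Benjamini-Hochberg adjusted p under 0.05), 30.9% higher and 20.5% lower in P. vachelli, and 59.4% did not overlap between the species. These shares are the background against which counts of members stand. The shares, and later counts of calls over the tested sequences, include the sequences near 0 in one species. Those were chosen by their difference and are described below without a test. More widely, 18 tested sequences reached 10 in every library of P. vachelli alone and 16 in every library of P. fulvidraco alone. A further 23 did so in neither species. The shares and counts include all of these sequences, which could pass the filter through the libraries where they were high. The direction balance depends on scaling: with library totals set equal, the median log2 fold change over the 278 sequences was -0.34 in place of -0.05, and 54 sequences were higher and 87 lower. Small fold changes are therefore given with the value at equal totals where it turns round or loses its call.

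A group of 10 sequences, all of them tested, reached 10 in every library of one species and stayed under 3 reads in every library of the other. P. vachelli held 8 of them, 7 predicted candidates and dre-miR-202-5p_R+1, and P. fulvidraco held 2, the candidate PC-5p-30865_77 and ola-miR-99_R+1_1ss10CT. They were chosen by this difference, so their normalized read counts are a description without a test. The most abundant was PC-5p-555_7718, a 21-base candidate, with 2324, 3195 and 3229 in P. vachelli, against 1.86, 1.98 and 0.92 in P. fulvidraco. The P. fulvidraco values stand for about 5 reads over the 3 libraries, so the mean ratio of 1838 is imprecise, with a 95% counting interval of 804 to 5783 that covers counting error only. The next, PC-5p-3257_591, had 272, 296 and 237 in P. vachelli and 0 in every P. fulvidraco library. Against a floor of 3 reads per library, it was at least 94.4-fold higher in P. vachelli, and PC-5p-17897_142 was at least 24.7-fold higher.

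The named sequence of this kind in P. vachelli, dre-miR-202-5p_R+1, belongs to a family known in fish mainly from the gonads. It had 31.2, 40.9 and 41.5 in P. vachelli, against 0, 0 and 0.23 in P. fulvidraco, low levels in P. vachelli as well. In the other direction, ola-miR-99_R+1_1ss10CT had 1.07, 0 and 0 in P. vachelli, against 21.4, 23.7 and 18.5 in P. fulvidraco, and PC-5p-30865_77 had 0 in each P. vachelli library, against 28.8, 27.7 and 33.2 in P. fulvidraco, at least 9.47-fold lower in P. vachelli. The remaining 4 candidates of P. vachelli, PC-3p-23565_106, PC-5p-5068_398, PC-3p-46140_42 and PC-3p-48402_39, lay between 10.8 and 52.5 in that species and between 0 and 0.99 in P. fulvidraco.

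**Figure D1:**
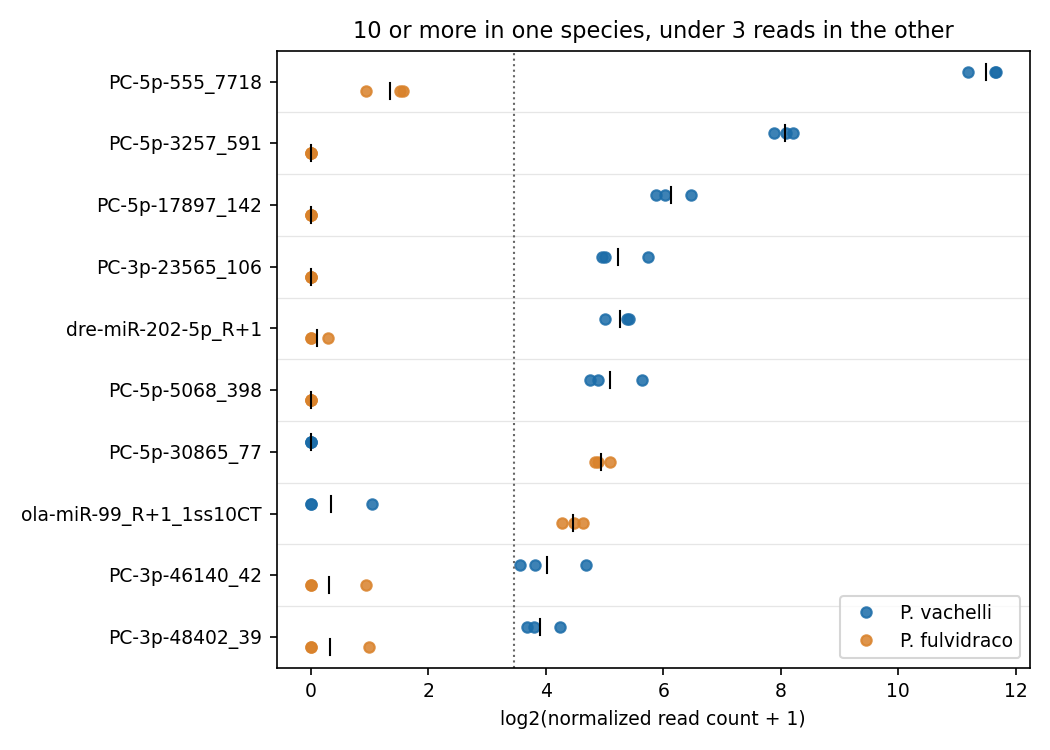
Level of each of the 10 sequences as log2(normalized read count + 1) on the x axis, with P. vachelli above P. fulvidraco in each row. Points are libraries, the bars are means of 3 libraries and the dotted line marks a normalized count of 10; PC-5p-555_7718 lies at 2324 to 3229 normalized counts in P. vachelli and at 0.92 to 1.98 in P. fulvidraco.

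Family sums separated the species in both directions. Of the families, 59 passed the test on the summed normalized counts (47.6% of those tested), 38 higher (30.6%) and 21 lower (16.9%) in P. vachelli, and 58.1% did not overlap between the species. At equal totals 27 were higher and 33 lower. These counts include miR-202, whose only tested sequence is the one described above without a test. Among abundant families, miR-181, known from lymphocytes and the vascular wall in mammals, summed to 74084, 62539 and 62773 in P. vachelli, against 31015, 27585 and 30583 in P. fulvidraco (adjusted p = 2.36e-05, log2 fold change 1.16 ± 0.10 SE). No library of one species reached the other. The sum of miR-192, a miRNA enriched in vertebrate liver and intestine, was 58608, 59993 and 65796 in P. vachelli, against 37053, 31115 and 30968 in P. fulvidraco (adjusted p = 6.79e-05, log2 fold change 0.90 ± 0.10 SE), and its cluster partner miR-194 also rose (log2 fold change 0.58, adjusted p = 0.00299) but lost its call at equal totals (adjusted p = 0.119). miR-103, which lowers insulin sensitivity in mouse liver, summed to 37197, 35207 and 36435 in P. vachelli, against 22809, 21365 and 23216 in P. fulvidraco (adjusted p = 6.86e-05, log2 fold change 0.69 ± 0.08 SE). miR-204 was low in both species but apart, at 196, 136.5 and 188 in P. vachelli, against 18.6, 34.6 and 28.6 in P. fulvidraco (adjusted p = 4.38e-05, log2 fold change 2.65 ± 0.26 SE).

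miR-144, made from one precursor cluster with miR-451 in red blood cells, summed to 3329.8, 2695 and 3059.7 in P. vachelli, against 8243, 8409 and 9340.0 in P. fulvidraco (adjusted p = 5.91e-05, log2 fold change -1.52 ± 0.16 SE), so all 3 P. vachelli libraries were lower. miR-190, which lies in a talin gene intron in mammals, gave sums of 343, 344 and 343 in P. vachelli, against 973, 1005 and 1021 in P. fulvidraco (adjusted p = 2.2e-05, log2 fold change -1.54 ± 0.12 SE), and both of its arms fell, chi-miR-190a-5p by 1.49 and chi-miR-190a-3p_L+1 by 1.91 on the log2 scale. The 3 P. vachelli sums of miR-190 were nearly equal, and all lay below those of P. fulvidraco. miR-2188 summed to 8715, 8069 and 8718 in P. vachelli, against 24071, 19494 and 20581 in P. fulvidraco (adjusted p = 0.000122, log2 fold change -1.33 ± 0.16 SE). The low families miR-3120, miR-489, miR-459 and miR-730 each fell, with log2 fold changes of -2.51, -2.30, -2.71 and -1.92. Their sums in P. vachelli ranged from 9.49 to 30.2, against 53.9 to 154 in P. fulvidraco.

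**Figure D2:**
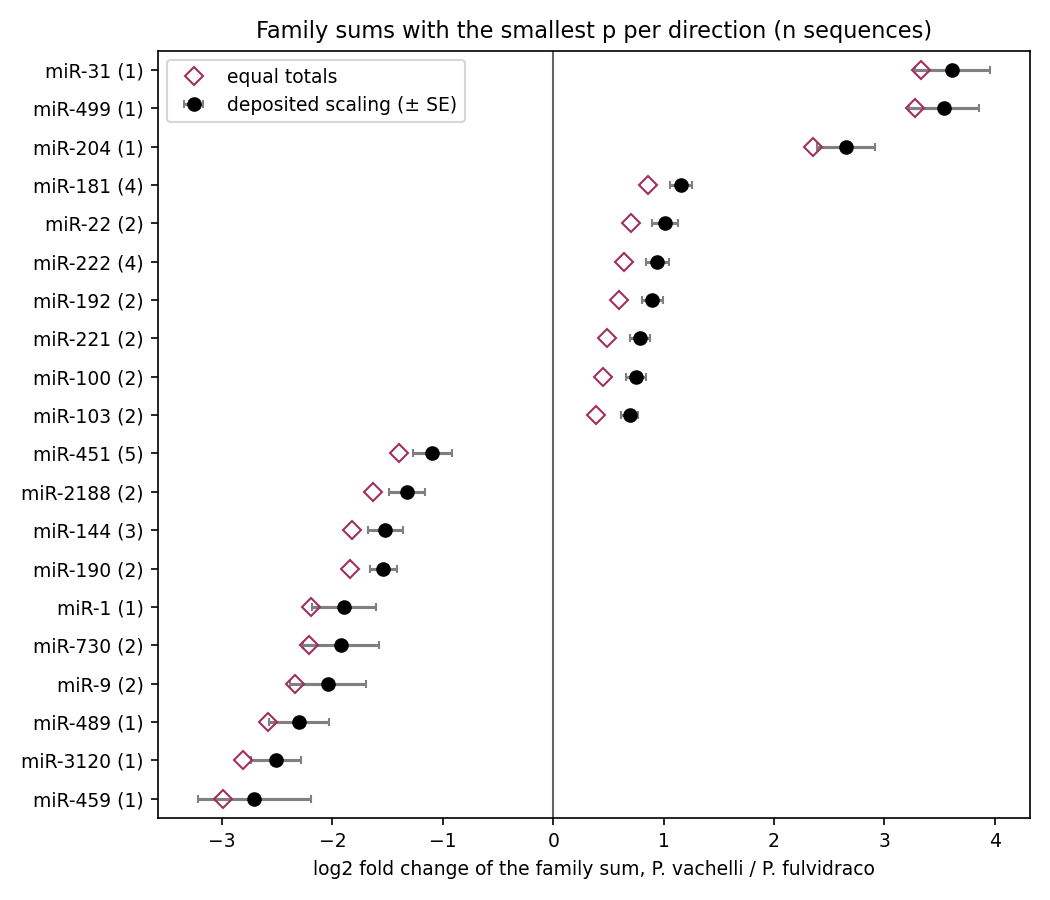
Log2 fold change of family sums, P. vachelli over P. fulvidraco, for the 10 families with the smallest p in each direction after leaving out miR-202, with the number of tested sequences in brackets. Filled points with bars are values ± SE at the deposited scaling and open diamonds are values at equal totals, which lie lower in every family shown and on the same side of 0. miR-499 and miR-31 averaged under 10 normalized counts in P. fulvidraco and passed the filter through the other libraries.

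The direction of calls within families depended on the scaling. Of the 64 families with 2 or more tested sequences, 27 held calls in the higher direction alone, 21 in the lower direction alone, 3 in both and 13 none; at equal totals these counts were 14, 28, 4 and 18. Every tested member rose in 8 families, among them miR-126 (5 of 5), the main endothelial miRNA of vertebrates, and miR-27 (4 of 4), which represses lipid metabolism genes in mammals. At equal totals none of the 8 kept every member called higher: 4 of 5 miR-126 and 3 of 4 miR-27 members were called higher, 1 of 2 in each of miR-143, miR-192, miR-22, miR-221 and miR-26, and 0 of 3 in miR-200. Members can be end variants of the same sequence and are then not separate support. cgr-miR-27a-3p_R+1_1ss19CT is dre-miR-27b-3p_R-1 with a T added, and dre-miR-126b-3p_R+1 is ssa-miR-126-3p_1ss18AG with an A added. Every tested member fell in 7 families, miR-135, miR-138, miR-142, miR-144, miR-190, miR-730 and miR-9, and in all 7 every member fell at equal totals too. The family counts of this paragraph include members under 10 in every library of 1 species, which passed the filter through other libraries. In P. vachelli the miR-138 3p sequence had 8.6, 5.39 and 2.37 and a miR-730 sequence had 8.6, 9.88 and 5.93. In P. fulvidraco the miR-26 3p sequence had 9.3, 6.92 and 8.31. Both arms held calls in one direction in 16 of the 44 families with sequences named for each arm, 7 higher and 9 lower, and at equal totals in 4 higher and 16 lower. Calls lay on 1 arm in 21 families, and in 1, let-7, the arms were called in both directions.

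The 3 families split between directions were let-7, miR-125 and miR-451, while at equal totals they were miR-125, miR-222, miR-451 and miR-92. In let-7, regulators of growth and differentiation, 11 sequences of the 5p arm and 7 of the 3p arm were tested. The summed level was 1605286, 1506318 and 1655719 in P. vachelli, against 1333899, 1282237 and 1401277 in P. fulvidraco (adjusted p = 0.00906, log2 fold change 0.25 ± 0.06 SE), but at equal totals the log2 fold change was -0.06 (adjusted p = 0.185). On the 5p arm 4 sequences rose and 2 fell, and on the 3p arm none rose and 3 fell. The rises rested on the scaling, because no let-7 sequence was called higher at equal totals. ssa-let-7f-5p_1ss19TA had 30282, 29082 and 30074 in P. vachelli, against 34083, 35018 and 37699.8 in P. fulvidraco (adjusted p = 0.0269, log2 fold change -0.25 ± 0.08 SE), without overlap, with an adjusted p of 0.102 without P. fulvidraco replicate 3. Its seed is that of ssa-let-7a-5p, which had 1024738, 981689 and 1092270.4 in P. vachelli, against 845681, 798576 and 875851 in P. fulvidraco (adjusted p = 0.00498, log2 fold change 0.30 ± 0.07 SE) and a log2 fold change of -0.00488 at equal totals. The 3p sequences that fell, named after their values were seen, were ssa-let-7b-3p_1ss3GA, ssa-let-7a-4-3p and ssa-let-7f-3p_1ss22CT, with log2 fold changes of -0.58, -0.36 and -0.78. Each lost its call with 1 library left out, with adjusted p of 0.0758 without P. vachelli replicate 2, 0.0797 without P. vachelli replicate 2 and 0.128 without P. fulvidraco replicate 3.

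Over the 202 seeds of the 278 sequences, 44 were shared by 2 or more sequences, and 4 of those held calls in both directions, against 5 seeds at equal totals, without that of let-7. Beside the let-7 seed these were the seeds of miR-100 and miR-99, of the miR-125 5p sequences, and of miR-1 and miR-206. cgr-miR-100-5p_R+1 had 410511, 332516 and 340401 in P. vachelli, against 215929.9, 197049 and 229355 in P. fulvidraco (adjusted p = 0.000117, log2 fold change 0.75 ± 0.09 SE), without overlap. With the same seed, efu-miR-99b_R-3 had 8.6, 3.59 and 8.3 in P. vachelli, against 6.51, 64.2 and 49.9 in P. fulvidraco. It overlapped through the P. fulvidraco library at 6.51, and its call was lost without P. fulvidraco replicate 2. Being under 10 in every P. vachelli library, it passed the filter through other libraries, so its values are a description without a test. The count of this seed as holding both directions rests on that sequence. The sum over the muscle seed shared by aca-miR-1a-3p and dre-miR-206-3p was 268 ± 42.1 in P. vachelli, against 646 ± 132.5 in P. fulvidraco (SD, n = 3 each), a description without a test. Of the members, aca-miR-1a-3p fell by 1.90 on the log2 scale and dre-miR-206-3p rose by 1.59.

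Arm ratios differed in few families by much. Of 44 families with tested sequences of both named arms, 15.9% had a 5p to 3p ratio that passed the test (9.09% higher and 6.82% lower in P. vachelli), 36.4% did not overlap, 40 differed by less than 1 on the log2 scale, and the median absolute difference was 0.33. The more abundant arm was the same in both species in all but miR-199, whose arms were near equal and whose ratio did not pass. The largest called difference was in miR-33, which in mammals lies in introns of the SREBP genes and represses cholesterol export through its 5p strand. gga-miR-33-5p had 274, 388 and 740.3 in P. vachelli, against 149, 88.9 and 94.2 in P. fulvidraco, and gga-miR-33-3p_L+1_1ss20TC had 680.4, 746 and 892 in P. vachelli, against 985, 629 and 677 in P. fulvidraco. The 5p levels did not overlap and the 3p levels did, so that the ratio was higher in P. vachelli (adjusted p = 0.000463, log2 difference 1.95 ± 0.23 SE).

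The ratio of miR-2188 ran the other way (adjusted p = 0.00155, log2 difference -1.06 ± 0.16 SE): dre-miR-2188-5p_R+1 had 7092, 6763 and 7333 in P. vachelli, against 22214, 17734 and 18521 in P. fulvidraco, while its 3p strand averaged 1438 in P. vachelli and 1892 in P. fulvidraco. miR-212, a neuronal miRNA in mammals, had more 5p in P. vachelli (adjusted p = 0.00577, log2 difference 1.06 ± 0.20 SE), with 5p levels of 32.2, 37.7 and 40.3 in P. vachelli, against 19.5, 14.8 and 13.8 in P. fulvidraco. The miR-212 3p sums were low and overlapped, at 13.97, 17.07 and 18.98 in P. vachelli, against 13.95, 17.79 and 14.77 in P. fulvidraco. The let-7 ratio was higher in P. vachelli (adjusted p = 0.00782, log2 difference 0.69 ± 0.14 SE), with 3p sums of 2732, 2631 and 2936 in P. vachelli, against 4257, 3523 and 3563 in P. fulvidraco and no overlap. The ratios of miR-133, miR-125 and miR-30 also passed, with log2 differences of -1.68, 0.71 and -0.51. Each of these 3 lost its call when 1 library was left out, with adjusted p of 0.0785 without P. fulvidraco replicate 3, 0.14 without P. fulvidraco replicate 3 and 0.16 without P. fulvidraco replicate 2. The miR-133 ratio rests on few reads. Its 5p levels were 5.37, 2.69 and 2.97 in P. vachelli, against 9.76, 8.89 and 19.4 in P. fulvidraco. P. vachelli replicates 2 and 3 were there at or under the level of 3 reads. Its 3p levels overlapped, at 12.2, 16.5 and 14.2 in P. vachelli, against 17.5, 9.55 and 11.7 in P. fulvidraco. Among the 10 smallest p, miR-26, miR-129 and miR-214 missed the threshold, each at an adjusted p of 0.052. The same ratios, unchanged in value, passed narrowly in the larger set with added arms below, at adjusted p of 0.045, 0.045 and 0.0479. That set was formed after the data were seen, and its adjustment includes miR-99, whose ratio is given no test. These narrow passes are therefore no support for a difference. The miR-26 3p sequence was also under 10 in every P. fulvidraco library and passed the filter through other libraries.

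For names without an arm, the opposite arm was assigned where all named sequences of the family lay on one arm and their starts were unlike. This step was added after the data were seen, and it raised the number of families to 56, of which 26.8% passed (10.7% higher and 16.1% lower) and 39.3% did not overlap. It brought in miR-451, which in zebrafish and mouse is cut by Argonaute2 without Dicer, so that the mature strand comes from the 5p side. The 5p sum was 36049.8, 34431 and 38455 in P. vachelli, against 86276, 82845 and 69536 in P. fulvidraco, and the 3p sum was 915, 788 and 788 in P. vachelli, against 116, 123.5 and 85 in P. fulvidraco. The arms stood in opposite directions, each without overlap, and the ratio was lower in P. vachelli (adjusted p = 1.12e-08, log2 difference -4.07 ± 0.16 SE). In miR-99 the 3p strand is the sequence near 0 in P. vachelli, while the 5p sums overlapped, 13707, 13352 and 13783 in P. vachelli, against 12069, 11351 and 13342 in P. fulvidraco. Its ratio is among the 15 that passed, but is given no test here because that 3p sequence was chosen by its difference. The ratios of miR-451, miR-33, miR-2188, miR-212 and let-7 held their call without any 1 library, whereas the other 9 did not.

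**Figure D3:**
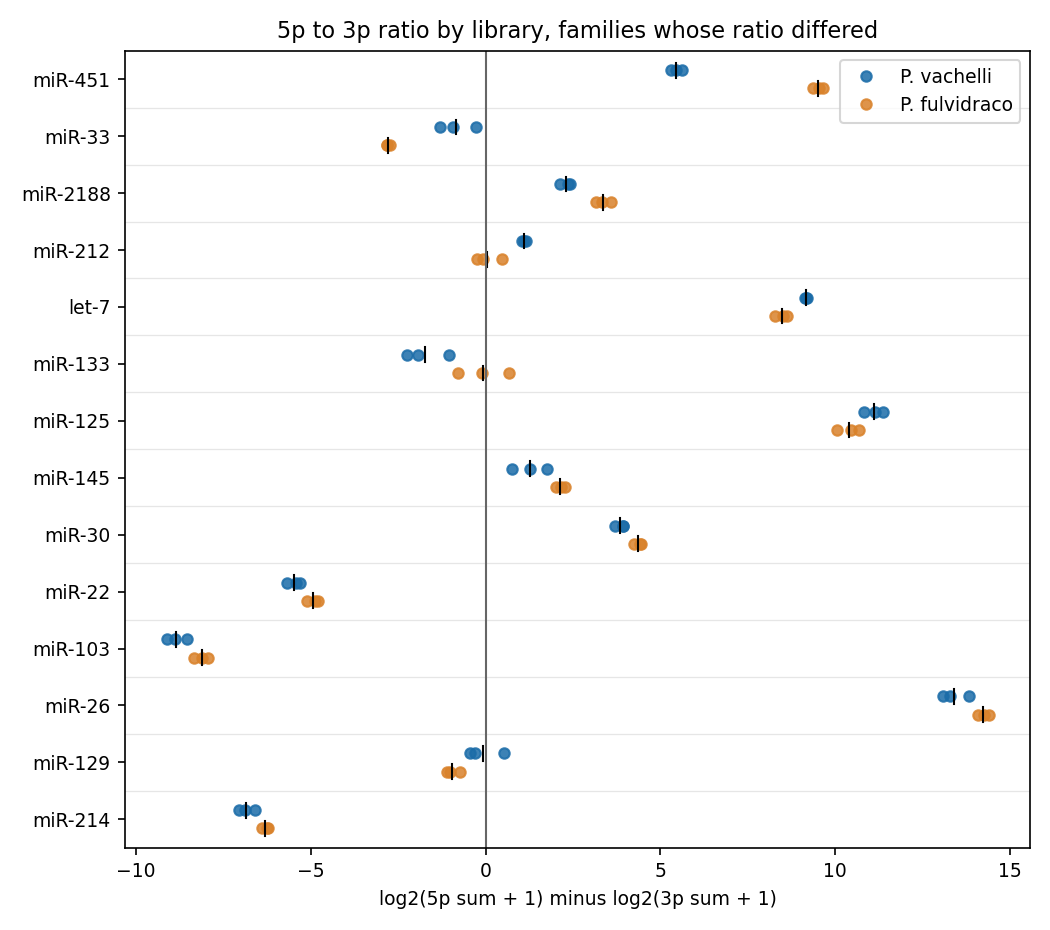
Ratio of the 5p to the 3p sum, as log2(5p sum + 1) minus log2(3p sum + 1), for the families whose ratio passed the test with the added arms, leaving out miR-99, with P. vachelli above P. fulvidraco in each row. Points are libraries and bars are means of 3; miR-451 stands farthest apart, with a lower ratio in P. vachelli.

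Within family arms, the shares of single sequences differed between the species. Shares were computed for 110 sequences in arms with 2 or more tested sequences, and 31.8% passed the test (16.4% higher and 15.5% lower in P. vachelli) while 50% did not overlap. In an arm with 2 tested sequences the shares mirror one another and have the same p. Such an arm therefore counts once in each direction when it passes, and the near-even split of directions follows from this in part. In the miR-125 5p arm, aca-miR-125a-5p made up 0.699, 0.73 and 0.671% in P. vachelli, against 23.8, 11.1 and 10.4% in P. fulvidraco (adjusted p = 0.000194, log2 difference in odds -4.55 ± 0.42 SE); sha-miR-125a made up the rest. Both carry the same seed, and P. fulvidraco replicate 1 held more than the other 2 libraries of its species. Of the miR-10 5p arm, dre-miR-10b-5p_R-1, encoded in a Hox gene cluster, held 12, 10.5 and 7.39% in P. vachelli, against 28.8, 29.6 and 30.1% in P. fulvidraco, with ccr-miR-10c_R-1 the complement (adjusted p = 0.000372, log2 difference in odds -1.94 ± 0.22 SE). The miR-10b level fell by 1.64 on the log2 scale, while that of miR-10c did not pass (adjusted p = 0.196).

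Of the miR-92 3p arm, ssa-miR-92b-3p held 34.3, 37.3 and 36.9% in P. vachelli, against 15.1, 16 and 18.3% in P. fulvidraco, so that xtr-miR-92a_R+1, of the miR-17-92 cluster, held the larger part in both species and less of it in P. vachelli (adjusted p = 0.000194, log2 difference in odds 1.52 ± 0.15 SE). Of the miR-222 3p arm, gga-miR-222b-3p_R-1 held 4.77, 4.02 and 4.92% in P. vachelli, against 8.87, 10.1 and 9.89% in P. fulvidraco (adjusted p = 0.000194, log2 difference in odds -1.16 ± 0.11 SE). In miR-144 5p the 2 sequences are end variants of one another, and aca-miR-144-5p_L+1R+1, which starts 1 base earlier and so has a shifted seed, held 16.2, 16 and 15.2% in P. vachelli, against 9.57, 10.1 and 10.9% in P. fulvidraco (adjusted p = 0.000372, log2 difference in odds 0.73 ± 0.08 SE). In each of these 3 arms the species did not overlap. In the let-7 5p arm, dre-let-7d-5p made up 0.0241, 0.0243 and 0.0228% in P. vachelli, against 0.419, 0.164 and 0.152% in P. fulvidraco, a minor share in both species (adjusted p = 0.000746, log2 difference in odds -3.21 ± 0.43 SE).

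**Figure D4:**
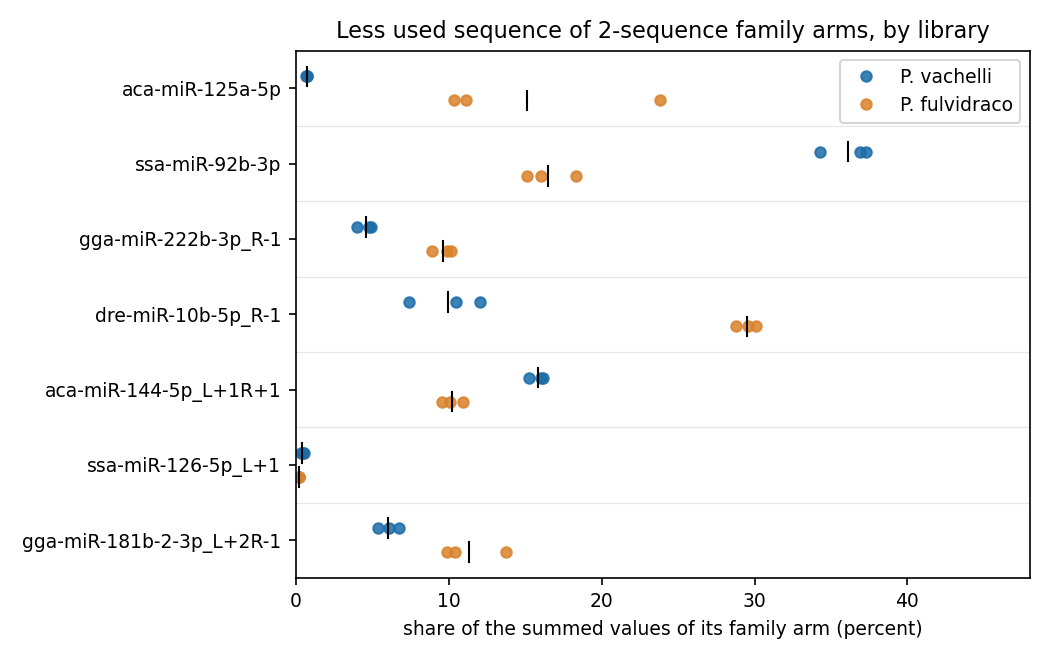
Share in percent of the summed normalized counts of its family arm held by the less used sequence, for 7 arms with 2 tested sequences whose shares passed the test, with P. vachelli above P. fulvidraco in each row. Points are libraries and bars are means of 3; aca-miR-125a-5p lies at 0.671 to 0.73% in P. vachelli and 10.4 to 23.8% in P. fulvidraco.

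Single-base neighbours gave a finer view. Lined up over at least 18 bases, 30 pairs of tested sequences differed at exactly 1 base. The ratio within the pair passed the test in 50% of them and did not overlap in 53.3%. Among those that passed is a pair with PC-3p-23565_106, which was chosen by its difference and is described above without a test. In the seed, 2 pairs differed and neither passed. Substitutions are written with the base of the first sequence, its position from the 5′ end and the base of the second. Of the pairs, 3 held opposite calls, and all of them set ssa-let-7f-5p_1ss19TA, which fell, against a sequence with a let-7a name that rose at the deposited scaling. Against ssa-let-7a-5p, from which it differs by A12G, the log2 ratio was -5.08, -5.08 and -5.18 in P. vachelli, against -4.63, -4.51 and -4.54 in P. fulvidraco (adjusted p = 0.000921, log2 difference -0.55 ± 0.08 SE). Such ratios do not depend on the scaling between libraries. In the abundant dre-miR-199-5p the A11G neighbour took a larger part in P. vachelli (adjusted p = 0.000707, log2 difference -0.69 ± 0.08 SE), as did the A18G neighbour of ssa-miR-126-3p (adjusted p = 0.0159, log2 difference -0.67 ± 0.17 SE), which had an adjusted p of 0.0523 without P. vachelli replicate 2. Both neighbours were traces of their arms. The A11G neighbour held 0.281 to 0.318% in P. vachelli, against 0.170 to 0.195% in P. fulvidraco. The A18G neighbour held 0.299 to 0.458% in P. vachelli, against 0.205 to 0.259% in P. fulvidraco. The C21T neighbour tni-miR-27e_R-1_1ss19AT rose more than cgr-miR-27a-3p_R+1_1ss19CT (adjusted p = 0.00212, log2 difference -0.77 ± 0.13 SE). At the 3′ end of miR-122, dre-miR-122_R+2 and fru-miR-122_R+2 differ by T23A, and the first was favoured in P. vachelli (adjusted p = 0.00114, log2 difference 0.69 ± 0.10 SE). The level of neither sequence was called. fru-miR-122_R+2 held only 0.0189 to 0.0467% of its arm in P. vachelli, against 0.0371 to 0.0579% in P. fulvidraco. How reads were divided between near-identical sequences is not stated by the labels. A let-7a name is that of the matched entry and need not give the paralog. ssa-let-7a-5p_2ss12GA16TA has the bases of oan-let-7e-5p_L+1R-1 apart from the ends.

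The order of abundance was similar at the top. ssa-miR-122-5p and ssa-let-7a-5p held ranks 1 and 2 in all 6 libraries, and 9 to 10 of the 10 most abundant sequences were shared by any pair of libraries of different species. Of the 50 most abundant, 43 to 45 were shared between libraries of different species, against 47 to 49 within a species. Spearman's coefficient across the 278 sequences was 0.925 to 0.935 for the 9 pairs between species and 0.986 to 0.996 for the 6 pairs within, as a description over sequences of the same libraries. Below the first pair of ranks, cgr-miR-100-5p_R+1 held ranks 3, 4 and 3 in P. vachelli and 5 in all P. fulvidraco libraries. ssa-let-7a-5p_2ss12GA16TA held rank 6 in all P. vachelli and 3 in all P. fulvidraco libraries, and tni-miR-22a, a miRNA of liver and heart, held 5, 5 and 4 in P. vachelli, against 7, 9 and 7 in P. fulvidraco.

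Among the 50 most abundant sequences over the 6 libraries, ranks did not overlap between the species in 28, a share near the 53.2% over all 278. The mean rank of gga-miR-181b-5p_R+1 was 42 in P. vachelli and 62.7 in P. fulvidraco, that of ssa-miR-92b-3p was 38.3 in P. vachelli and 56 in P. fulvidraco, and that of pma-miR-181a-5p was 19.7 in P. vachelli and 32.3 in P. fulvidraco. These 3 stood higher in the order in P. vachelli, and so did dre-miR-222a-3p_R-1 and ccr-miR-192_R+1 with no overlap, and ccr-miR-15b with overlap. Standing lower in P. vachelli, dre-miR-2188-5p_R+1 had a mean rank of 59.3 in P. vachelli and 36 in P. fulvidraco, dre-miR-19d-3p_R-1 of 56 in P. vachelli and 42 in P. fulvidraco and dre-miR-451 of 25.7 in P. vachelli and 14 in P. fulvidraco. dre-miR-15a-5p_R-1, dre-miR-146b_R+1 and ssa-let-7f-5p_1ss19TA followed with smaller steps. Ranks within a library do not change with the scaling between libraries. By abundance, 62% of the 50 most abundant sequences passed the test of levels, 24 higher and 7 lower, or 13 higher and 19 lower at equal totals. In the following bands of 50 the share was 46, 54 and 48%, and in the 78 least abundant 48.7%.

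**Figure D5:**
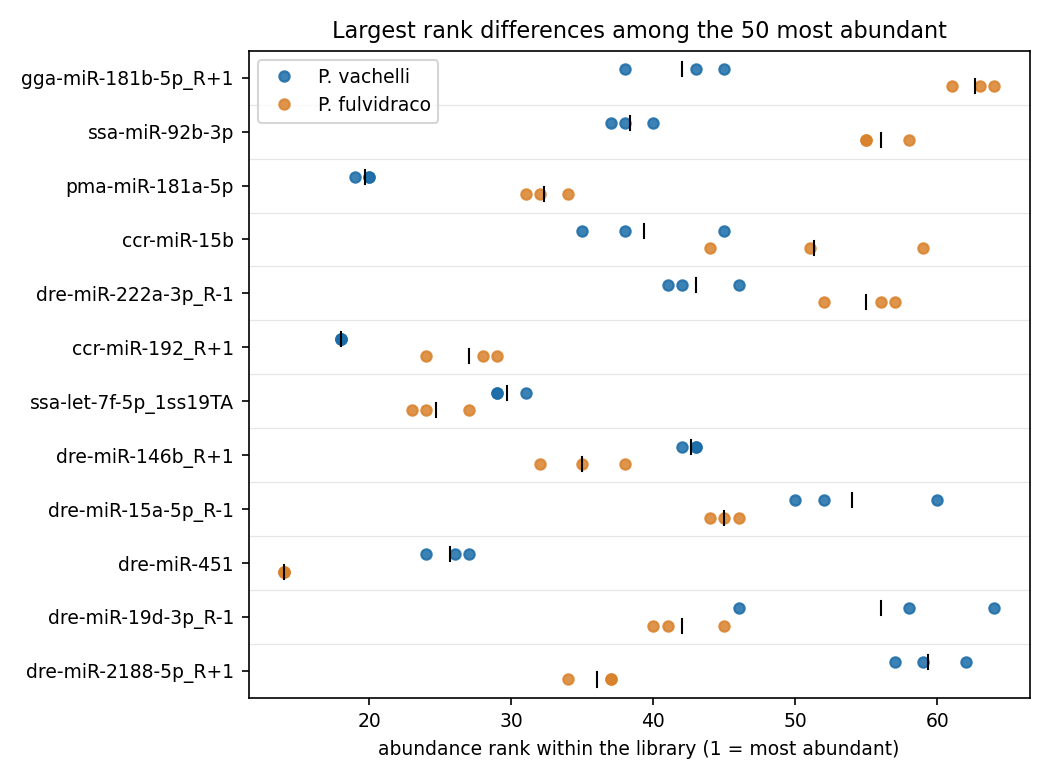
Abundance rank within each library, 1 being the most abundant of 278, for the 6 largest rank differences per direction among the 50 most abundant sequences, with P. vachelli above P. fulvidraco in each row. Points are libraries and bars are means of 3; the upper 6 rows stand nearer to rank 1 in P. vachelli and the lower 6 nearer to rank 1 in P. fulvidraco.

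Families were also read by the cell type they mark in vertebrates; in bulk liver, fewer cells of a type and less RNA per cell cannot be told apart. Over all 278 sequences the median log2 fold change was -0.05, and 30.9% rose and 20.5% fell. At equal totals 54 of the 278 rose and 87 fell. Of the hepatocyte families, 6 of 14 sequences rose and 1 fell (median 0.34), with summed levels of 2851722 to 3392053 in P. vachelli, against 2240599 to 2547095 in P. fulvidraco; at equal totals 2 rose and 4 fell. In the endothelial list (miR-126, miR-221 and miR-222), 9 of 11 sequences rose and 0 fell (median 0.80), and in the mesenchymal list (miR-140, miR-143, miR-145, miR-199 and miR-214), 9 of 14 sequences rose and 0 fell (median 0.62). The endothelial count includes end variants of the same miR-126 sequence, which are not separate support. At equal totals the endothelial list had 7 rises with 1 fall, and the mesenchymal list 3 rises with none. That share of mesenchymal rises is near the share over all sequences at equal totals. The endothelial sums were 361313 to 425884 in P. vachelli, against 242619 to 274661 in P. fulvidraco. The mesenchymal sums were 385202 to 430413 in P. vachelli, against 295595 to 345821 in P. fulvidraco. Neither overlapped at the deposited scaling. All list sums are given at that scaling only. There the library totals were 6994970 to 7650641 in P. vachelli, against 5678167 to 6254120 in P. fulvidraco, so a separation of sums need not hold at equal totals. In the epithelial list, 5 of 7 sequences rose and 0 fell (median 0.48), and 2 rose at equal totals. Among the rises at both scalings is gga-miR-183_R-1, at 14.2 to 17.1 in P. vachelli, against 1.85 to 2.96 in P. fulvidraco. That sequence passed the filter without any P. fulvidraco library.

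The erythroid list ran in both directions: 2 of 8 sequences rose and 5 fell (median -1.02), the 2 rises being the miR-451 3p sequences and the falls being of miR-144 and of the miR-451 5p strand. Its summed level was 37914 to 42303 in P. vachelli, against 78961 to 94636 in P. fulvidraco, and miR-486 had no tested sequence. With its 8 sequences all of miR-144 and miR-451, the list gives no measure of red blood cells apart from those families. Of the muscle families, 2 of 6 sequences rose and 3 fell, with sums of 442 to 484 in P. vachelli, against 924 to 1213 in P. fulvidraco and no tested miR-208. The rises include miR-499, which averaged under 10 in P. fulvidraco and passed the filter through other libraries. Of the leukocyte families, 3 of 15 sequences rose and 5 fell, with sums of 213167 to 252027 in P. vachelli, against 209310.3 to 231038 in P. fulvidraco, the rises being those of miR-181. Among neural families 2 of 12 sequences rose and 4 fell, with sums of 34437 to 39580.4 in P. vachelli, against 31502 to 40206 in P. fulvidraco. In the pancreas list 0 of 7 sequences rose and 1 fell, with overlapping sums of 6375 to 13160.2 in P. vachelli, against 9504 to 16670.3 in P. fulvidraco, and both miR-375 and miR-7 had values above 0 in all 6 libraries. At equal totals the counts of calls in these 5 lists moved by at most 1. The shares over all tested sequences at the deposited scaling were 30.9% rising and 20.5% falling. The part of cell types or other tissue in any family difference was not tested.

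By function and cluster, the lists also split. The background shares over all sequences were 30.9% rising and 20.5% falling. Among families linked to lipid and cholesterol metabolism, 12 of 39 sequences rose and 6 fell, close to the background shares, and at equal totals 8 rose and 9 fell. The 4 with the smallest p were fru-miR-103, tni-miR-27e_R-1_1ss19AT, dre-miR-27b-3p_R-1 and fru-miR-21, and all 4 rose. Among growth and insulin signalling families 7 of 39 sequences rose and 12 fell, and 3 rose and 16 fell at equal totals. The falls include ola-miR-99_R+1_1ss10CT, which was chosen by its difference and is described above without a test. Among stress and hypoxia families 8 of 20 sequences rose and 3 fell, and 5 rose and 4 fell at equal totals. The rises include miR-31, which averaged under 10 in P. fulvidraco and passed the filter through other libraries. Of genomic clusters known in vertebrates, the miR-23/27/24 cluster had 6 rises and no fall in 10 sequences, and the cluster of miR-192 and miR-194 had 3 rises in 4, against 3 and 1 at equal totals. The miR-29 and miR-30 families had no rise, with 3 falls in 6 and 2 falls in 7 sequences, and with 4 falls each at equal totals. In the families of the miR-17-92 cluster and its paralogs, 1 of 18 sequences, ssa-miR-92b-3p, rose and 4 fell, and at equal totals 11 fell. This list takes families by number, so it holds miR-92b along with the miR-92a of the cluster, and the rise cannot be credited to the cluster.

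Some sequences varied widely within a species. The following were chosen after their values were seen. P. fulvidraco replicate 1 stood apart for aca-miR-125a-5p, at 20024 against 6550.1 and 6554 in the other 2, and for dre-let-7d-5p, at 5575 against 2101 and 2130.2. The same library was low for tni-miR-375, a pancreatic islet miRNA, which had 993, 566 and 424 in P. vachelli, against 633, 2107 and 2298 in P. fulvidraco. Of the 174 sequences averaging 100 or more, ssa-miR-7a-5p varied most within a species, with 203.1, 65.6 and 22.5 in P. vachelli, against 42.8, 334 and 410.1 in P. fulvidraco. All P. vachelli values of aca-miR-125a-5p and dre-let-7d-5p were below each of those of P. fulvidraco, and the largest adjusted p with 1 library left out was 0.000746 for aca-miR-125a-5p and 0.00161 for dre-let-7d-5p.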

How the data were processed

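The authors sequenced small RNA from 5 µg of total liver RNA per library (TruSeq Small RNA kit, Illumina HiSeq) and filtered the reads with ACGT101-miR, which removed adapter dimers, low-complexity reads, other RNA families and repeats, per the labels' protocols. The deposited signal values are the authors' normalized read counts per sequence; their formula is not given in the sources used here, so they were not tested as raw counts. Reads per library were estimated from the smallest step of the values. All columns were mapped to libraries (0 columns left over).

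The first entry of each distinct sequence was kept, since 67 tested sequences had several entries, if it reached 10 in at least 3 of the 9 libraries. Levels, family sums and log2 ratios (pseudocount 1) were fitted with limma 3.58.1 in R 4.3.3 over all 9 libraries, with a mean per line, a trend with abundance for levels and sums only, and Benjamini-Hochberg adjustment over all features of a kind. A family is the number in the miRNA name. An arm came from the name for 195 sequences and from a named sequence of the family with the same seed for 28, and 55 had none. Pairs had start offsets of at most 2 bases. The scripts were tested on simulated data. Tables and figures used Python 3.11.15 with pandas 2.3.3 and matplotlib 3.10.9.

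Sequences were named by rule: the largest changes and most abundant calls, the smallest adjusted p of families, ratios, shares and pairs, the most abundant and most shifted ranks, and sequences near 0 in one species. The members, lists and rules were chosen with earlier results of these data known. Replicate numbers were not used to pair the libraries. Same-numbered libraries of both species had correlations of -0.27, 0.14 and -0.42 in their deviations, and those of different number had -0.23 to 0.42. With 3 libraries per species these correlations are tied to one another and cannot show whether the numbers pair the libraries. No genome was used, so no coordinates are given.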

Additional observations from a re-analysis of the deposited data

How the results depend on the processing

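Counts of calls moved by more than 1.5 times under several settings. At equal totals the single sequences called higher went from 86 to 54, and those called lower from 57 to 87. With a minimum normalized count of 100, 93 single sequences, 4 arm ratios (7) and 7 arm ratios with the added arms (15) passed. That minimum leaves out low-level features, and the cause of the lower counts was not tested. With lettered name and arm as the unit, which splits families into more sums, 115 sums passed in place of 59 family sums. With the 6 parental libraries alone 8, and with a replicate block 7, of the 15 ratios with the added arms passed; the cause was not tested. Leaving out each library in turn gave at fewest 111 single sequences and 52 to 65 family sums, and 4 to 9 arm ratios, 6 to 15 arm ratios with the added arms, 23 to 43 shares and 7 to 14 pairs. The arm ratios fell to 4 without P. fulvidraco replicate 2 or 3. With the added arms they fell to 6 without either of these, 7 without Huangyou-1 replicate 2, 8 without P. vachelli replicate 2 and 9 without P. fulvidraco replicate 1. Shares fell to 23 without P. vachelli replicate 2, and pairs to 7 without it, 8 without P. fulvidraco replicate 2 and 9 without P. vachelli replicate 1. At equal totals 3 named sequences turned direction without passing: dre-miR-26a-5p (-0.01228, adjusted p = 0.869), ssa-let-7a-5p (-0.00488, adjusted p = 0.923) and ssa-let-7a-5p_2ss12GA16TA (-0.08838, adjusted p = 0.283). Median ratios, either other pseudocount and summed entries each changed at most 2 of the named results and turned no direction. The replicate number, which was not used in the main fits, gave as a block 118 single sequences, 52 family sums, 5 arm ratios, 30 shares and 13 pairs. The fit without a trend was not run for ratios, which were fitted without one.

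A count of 0 allows up to 3 reads in a library, about 3 normalized counts.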

Other observations

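The sequences under 3 reads in one parental species were also measured in the hybrid. In the 3 Huangyou-1 libraries PC-5p-555_7718 ranged from 1167 to 1419 normalized counts and PC-5p-3257_591 from 64.8 to 99.6, while dre-miR-202-5p_R+1 ranged from 1.97 to 2.42, under the level of 3 reads. PC-5p-30865_77, at 0 in P. vachelli, ranged from 10.6 to 15.0 in the hybrid. PC-5p-5068_398 varied most among them in the hybrid, from 2.31 to 62.1.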
